A study of Mus musculus with 25 samples.

Results

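A stretch of 2140 kb on mouse chromosome 11 held 54 of the 65053 consensus ATAC-seq peaks, and all 54 stood at the lowest value of the table in every αTC1 library while being open in βTC6. The stretch runs from 109037675 to 111177459 on the mm9 build. The 9 genes described here are Rgs9, Gna13, Amz2, Slc16a6, Arsg, Wipi1, Fam20a, Abca5 and Map2k6, of 24439 genes in the RNA-seq tables. The peaks were selected on the ATAC-seq values of the pure lines themselves, as an unbroken run without αTC1 signal, and the 9 genes were picked from the 22 genes inside it with their RNA levels known. Peak values in the pure lines are therefore a description and carry no test.

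Open chromatin was profiled by ATAC-seq, in which a transposase cuts accessible DNA, in 5 αTC1 and 5 βTC6 libraries and in 9 mixtures of the lines. RNA-seq was made from 3 αTC1 and 3 βTC6 samples. αTC1 (clone 6) derives from a mouse islet tumour driven by SV40 T antigen under the glucagon promoter, and βTC6 from a tumour driven by the same antigen under the insulin promoter. Both lines were untreated, grew in different media, and stand for 1 line each, so that cell type, line and medium cannot be told apart. The mixtures held from 90% to 10% βTC6 cells in steps of 10%, with 1 library per composition. Separate cultures are not stated for the replicates, and p-values therefore measure the spread between these samples, which may be technical.

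Accessible chromatin marks promoters and enhancers that are bound by transcription factors, and neighbouring genes often share such elements. In islets, the hormone and receptor genes of alpha and beta cells lie in such chromatin. The genes of the stretch serve different functions. Rgs9 and Gna13 act in G protein signalling, Map2k6 activates the p38 MAP kinases, Wipi1 takes part in autophagosome formation, Abca5 and Slc16a6 are membrane transporters, Arsg is a lysosomal sulfatase, Amz2 is a metalloprotease and Fam20a works in the secretory pathway.

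The promoter sequences below are shown because each belongs to a peak that was empty in αTC1 and open in βTC6. Each is a window of 150 bases next to the annotated gene start, inside the promoter peak and free of annotated exons, read from NCBIM37, the assembly that mm9 names. Slc16a6 and Arsg start close to each other on opposite strands and share 1 peak. Their window lies upstream of Slc16a6 and begins 225 bases inside Arsg, so none is shown upstream of Arsg. Capitals mark matches to 9 short motifs searched on both strands.
Rgs9, chr11:109159444-109159593, minus strand: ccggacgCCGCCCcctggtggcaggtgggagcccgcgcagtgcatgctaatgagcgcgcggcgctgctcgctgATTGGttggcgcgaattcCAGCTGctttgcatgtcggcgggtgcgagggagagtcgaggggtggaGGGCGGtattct
Gna13, chr11:109223995-109224144, plus strand: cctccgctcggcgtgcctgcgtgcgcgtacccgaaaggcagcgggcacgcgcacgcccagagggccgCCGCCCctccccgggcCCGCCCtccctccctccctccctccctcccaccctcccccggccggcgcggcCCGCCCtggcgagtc
Amz2, chr11:109287110-109287259, plus strand: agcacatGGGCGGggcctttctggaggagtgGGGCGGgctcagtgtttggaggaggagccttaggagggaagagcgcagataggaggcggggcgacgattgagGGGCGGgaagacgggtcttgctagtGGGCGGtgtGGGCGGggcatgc
Slc16a6, chr11:109334913-109335062, minus strand: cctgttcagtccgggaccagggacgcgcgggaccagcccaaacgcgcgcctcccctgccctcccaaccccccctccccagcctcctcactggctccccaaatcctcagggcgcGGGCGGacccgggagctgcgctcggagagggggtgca
Wipi1, chr11:109473282-109473431, minus strand: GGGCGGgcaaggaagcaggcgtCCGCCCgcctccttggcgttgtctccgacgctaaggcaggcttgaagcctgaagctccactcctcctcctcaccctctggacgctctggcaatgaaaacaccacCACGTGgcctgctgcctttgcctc
Fam20a, chr11:109583594-109583743, minus strand: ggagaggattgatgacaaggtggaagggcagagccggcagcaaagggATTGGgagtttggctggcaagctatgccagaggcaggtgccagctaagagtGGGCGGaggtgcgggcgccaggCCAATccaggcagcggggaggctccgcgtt
Abca5, chr11:110199031-110199180, minus strand: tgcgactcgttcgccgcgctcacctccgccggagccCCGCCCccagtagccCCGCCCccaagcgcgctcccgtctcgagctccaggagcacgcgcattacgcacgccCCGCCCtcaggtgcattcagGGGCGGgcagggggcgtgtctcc
Map2k6, chr11:110260286-110260435, plus strand: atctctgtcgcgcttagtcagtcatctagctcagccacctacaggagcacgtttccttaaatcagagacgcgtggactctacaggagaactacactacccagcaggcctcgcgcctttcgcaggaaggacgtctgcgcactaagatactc

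GGGCGG, the GC box bound by Sp1-type factors, or its complement occurred in 7 of these 8 promoter windows, Map2k6 being the exception. Of 22367 protein-coding gene starts, 35.5% had it in the 150 bases upstream. In 200-base windows at peak centres the order was the opposite, with a GC box in 6 of the 19 promoter peaks of the stretch and in 43.2% of all promoter peaks. Matches to CCAAT occurred in Rgs9 and Fam20a, and 26.1% of gene starts held one. The E-box CACGTG occurred in Wipi1 (4.62% of gene starts) and the E-box CAGCTG in Rgs9 (7.51%). A match is a description of letters, and binding was not measured.

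The next sequences are 200-base windows at the centre of the peaks that bound the stretch and of the strongest peak away from a gene start. They show which peaks lie just outside and just inside the run.
Left neighbour, outside, chr11:108873085-108873284, plus strand: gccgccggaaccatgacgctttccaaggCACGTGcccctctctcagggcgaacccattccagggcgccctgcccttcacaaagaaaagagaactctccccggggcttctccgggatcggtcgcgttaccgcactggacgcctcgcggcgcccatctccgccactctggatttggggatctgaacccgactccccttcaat
First peak, inside, chr11:109037833-109038032, plus strand: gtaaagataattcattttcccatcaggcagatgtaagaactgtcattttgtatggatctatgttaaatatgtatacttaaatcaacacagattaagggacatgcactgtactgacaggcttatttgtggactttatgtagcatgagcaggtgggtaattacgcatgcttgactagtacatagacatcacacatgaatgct
Rgs9 intron peak, chr11:109131137-109131336, plus strand: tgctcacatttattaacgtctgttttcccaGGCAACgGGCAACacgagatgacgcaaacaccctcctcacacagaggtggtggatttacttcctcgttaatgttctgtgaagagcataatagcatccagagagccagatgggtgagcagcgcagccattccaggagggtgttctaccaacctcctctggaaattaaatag
Last peak, inside, chr11:111177227-111177426, plus strand: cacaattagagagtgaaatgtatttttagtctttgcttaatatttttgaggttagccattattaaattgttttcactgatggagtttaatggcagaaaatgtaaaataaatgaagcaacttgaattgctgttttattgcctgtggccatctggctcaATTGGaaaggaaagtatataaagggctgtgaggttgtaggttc
Right neighbour, outside, chr11:111398917-111399116, plus strand: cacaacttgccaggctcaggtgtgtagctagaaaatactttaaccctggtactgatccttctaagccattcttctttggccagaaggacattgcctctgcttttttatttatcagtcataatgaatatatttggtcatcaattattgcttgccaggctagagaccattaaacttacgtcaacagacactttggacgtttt

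The letters GTTGCC, part of the site bound by RFX factors, occurred as a pair (capitals) in the Rgs9 intron peak. They lay in 9.26% of the stretch windows and in 8.59% of the windows of all peaks. The GC box lay in 13% of stretch windows against 15.5% of all windows, the CCAAT box in 24.1% against 23.3%, the E-box CAGCTG in 14.8% against 17.2% and the E-box CACGTG in 3.7% against 3.72%. The homeobox core TTAATTA lay in 5.56% against 3.68%. The forkhead core TGTTTAC lay in 5.56% against 6.31%. The ETS core CCGGAAG lay in 1.85% against 3.09%. The cAMP response element TGACGTCA was in none of the 54 windows, and 0.761% of all windows held it. The median GC content was 46.5% in the stretch and 48.5% over all peaks. In 53 of the 54 windows every run of 31 bases had a single position in the assembly, and in the remaining window, in a Prkar1a intron, 77.1% did.

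ATAC-seq reads in peaks ranged from 6903416 to 8300868 in αTC1, from 4397851 to 10374903 in βTC6 and from 5277983 to 7294832 in the mixtures. RNA-seq expected counts ranged from 21954031 to 26033482. Summed FPKM of 9 beta cell markers lay between 34965 and 51924 in βTC6 but only from 47.6 to 49.6 in αTC1. That of 6 alpha cell markers was 13272 to 15355 in αTC1, and 738 to 1862 in βTC6. Of these, 5 were called higher in αTC1. Ttr was not called, with 1116 ± 526 FPKM in βTC6 against 835 ± 154 in αTC1 (SD, n = 3). Delta, PP and epsilon cell markers summed to between 238 and 349 FPKM in βTC6 and to at most 1.04 in αTC1. Acinar and duct markers summed to at most 3.73 FPKM in any library, and blood, endothelial and stromal markers to at most 2.5. The part of these other cell types in the results was not tested.

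Every one of the 54 peaks was at 1 read in all 5 αTC1 libraries and above 1 read in all 5 βTC6 libraries, where the lowest held 9 reads and the highest 890. One read is the lowest value anywhere in the table, so that 1 read and no read cannot be told apart. Summed over the stretch, this floor came to between 7.37 and 8.12 normalized reads in the αTC1 libraries, which is 0.781% to 0.860% of the βTC6 mean. The βTC6 sums were 979, 906, 946, 999 and 891 normalized reads in replicates 1 to 5. The lines did not overlap. Over the genome 0.229% of peaks had this pattern, or 149 peaks, and 95 of them lay outside the stretch. The next longest unbroken run of such peaks held 3, on chromosome 2. No genomic DNA of either line was analysed here, so the missing reads were not set against DNA content.

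**Figure D1:**
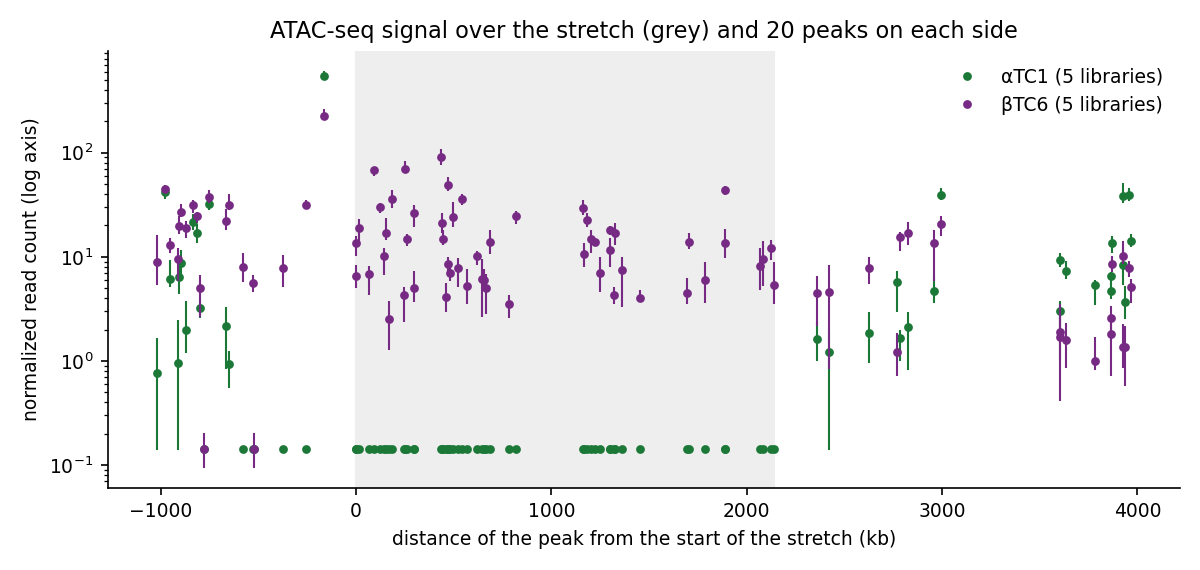
ATAC-seq signal of the 54 stretch peaks (grey area) and of 20 peaks on each side, against distance from the start of the stretch in kb. Points are the means of 5 libraries, vertical lines the range from lowest to highest library, and the vertical axis is logarithmic. All αTC1 points of the stretch lie at the floor of 1 read (0.142 normalized reads) and all βTC6 points lie above it, between 2.54 and 90.5. At 2 peaks left of the stretch both lines lie at the floor and the points cover each other.

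The peaks differed widely among themselves in βTC6, from 2.54 ± 1.14 to 90.5 ± 13.9 normalized reads (SD, n = 5), with a median of 12 against 7.75 for all other peaks. The highest were the promoter peaks of Wipi1 (90.5 ± 13.9) and Amz2 (69.7 ± 8.56). A peak in an intron of Rgs9, which holds the sequence with the pair of RFX motifs, followed with 59.9 to 73.6 normalized reads in the 5 libraries and a mean of 67.9 ± 5.94. Between βTC6 libraries the median coefficient of variation was 18.8% for stretch peaks and 23.0% for the rest. Of the 54 peaks, 19 lay within 2 kb of a transcription start (35.2%, against 27.0% of all peaks), and these had a median of 24.5 normalized reads against 7.42 for the others. By annotation 17 overlapped an exon, 13 lay in introns and 24 between genes. They were unevenly spread, with 33 in the first 819 kb, then a gap of 342 kb that ended at the Abca5 promoter.

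In the limma fit over all peaks 52 of the 54 were called higher in βTC6 (FDR under 5%, log2 fold change over 2), where 12.9% of all peaks were. The rule used this contrast, so the count only describes the selection. Their log2 fold changes ranged from 1.57 to 6.31 with a median of 3.49, on the scale of log2(normalized reads + 1), against a median of 0.00 over all peaks and 0.09 over the other 2833 peaks of chromosome 11. With a pseudocount of 5 in place of 1 the count was 18. Of all calls, 70.6% were higher in βTC6, and 52.5% after quantile normalization.

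The run had different borders to the left and right. The last peak inside held 25, 44, 41, 33 and 40 reads in the βTC6 libraries, and its right neighbour, 221 kb further on, held 12, 17, 11, 10 and 7 reads in αTC1 and 46, 18, 36, 36 and 23 in βTC6. All αTC1 libraries were therefore above the floor again at the first peak on the right. The first peak inside held 108, 77, 107, 89 and 110 reads in βTC6. Its left neighbour, 164 kb away and between genes, was among the strongest peaks of αTC1, with 507 to 614 normalized reads and a mean of 550.2, and only 18 peaks of the genome had a higher αTC1 mean. Its βTC6 mean was 226 ± 24.1, a log2 fold change of -1.28. As its αTC1 signal is what ended the run, these values are a description with no test. In the 200-base window at its centre every run of 31 bases had a single position in the assembly. Copies missing from the assembly would escape this count, and whether the reads of this peak came from this position was not tested.

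Beyond that 1 peak the αTC1 signal was absent again. The next 5 peaks on the left were all at 1 read in every αTC1 library, and 4 of them were above 1 read in every βTC6 library. The remaining one was at 1 read in both lines, and each run of 31 bases in the 200-base window at its centre occurred elsewhere in the assembly, up to 3726 times. These peaks began at 108459224, 578 kb left of the stretch, so that the αTC1 floor reached over 2718 kb with the interruption of 1 peak. They included the promoter peak of Axin2, a target and inhibitor of Wnt signalling, at 108781403 to 108782598, with 247, 144, 215, 221 and 344 reads in βTC6 (mean 31.5 ± 2.41 normalized reads). Its log2 fold change was 4.83, given with no test because the peak is described for this pattern. The other 4 lay in introns of Ccdc46. The peaks of Ccdc46 nearer to its start were above the floor in αTC1, with 200 to 274 reads at its promoter.

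Of the 40 flanking peaks 13 were called, where 18.3% of all peaks were. On the left 9 of 20 were higher in βTC6 and none higher in αTC1, with a median log2 fold change of 1.53. On the right 2 of 20 were higher in βTC6 and 2 higher in αTC1, with a median of -1.04. With a pseudocount of 5 the flanking count fell to 2.

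RNA of the 9 genes was present in βTC6 and nearly absent in αTC1. Their summed expected counts per library were 2.83 to 4.05 in αTC1, as opposed to 14415 to 19191 in βTC6. All 9 passed the filter of FPKM of 1 or more in every replicate of either line, and passed it through βTC6. All 9 were called higher in βTC6 by edgeR, where 10.2% of the 12195 genes tested were. As the genes were chosen with these levels known, no p-value is given for them. In 7 of the 9 every αTC1 library had 0 counts. Over all genes tested 1.08% had 0 counts in αTC1 and FPKM of at least 1 in every βTC6 library. In bulk RNA, fewer expressing cells and less RNA per cell cannot be told apart.

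Rgs9, a GTPase-activating protein of the R7 group that shortens signals of inhibitory G proteins, had FPKM of 45.32, 33.03 and 34.80 in βTC6. In αTC1 it was the member with the most counts, 1.83, 4.05 and 3.87 expected counts, or at most 0.05 FPKM. The lines did not overlap, and the ratio of normalized counts was 667 (95% counting interval 363 to 1392). Gna13, a G protein alpha subunit of the G12/13 class that passes on receptor signals, had 20.51, 17.58 and 20.31 FPKM in βTC6 and 0 counts in αTC1, at least 846-fold higher when αTC1 is set to a floor of 3 counts per library. Map2k6, a kinase that phosphorylates p38, had 3.75, 3.02 and 2.61 FPKM in βTC6 and 0 counts in αTC1, at least 48.5-fold higher. The bound is lower than for Gna13 because Map2k6 had only 125 to 182 counts in βTC6.

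Wipi1, which binds the lipid PI3P on forming autophagosomes, was the highest of the members. It had 92.88, 79.24 and 60.63 FPKM in βTC6, above 90.9% of the genes tested, and 0 counts in αTC1, at least 1728-fold higher. Abca5, an ATP-driven transporter of endosomes and lysosomes, had 15.67, 14.06 and 11.01 FPKM and was at least 834-fold higher. Slc16a6, a carrier of the monocarboxylate transporter family, had 6.74, 4.0 and 6.65 FPKM in βTC6 and 1, 0 and 0 counts in αTC1, a ratio of 1207 with a counting interval from 216 to 47706. These intervals cover counting error only.

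The remaining members encode enzymes or an enzyme regulator. Amz2, a zinc metalloprotease, had 53.53, 44.54 and 52.02 FPKM in βTC6 and was at least 817-fold higher. Fam20a, a pseudokinase that activates the secretory kinase Fam20c, had 7.87, 12.77 and 7.50 FPKM and was at least 189-fold higher. Arsg, a lysosomal sulfatase, had 2.93, 2.68 and 3.14 FPKM and was at least 71.7-fold higher. All of them had 0 counts in every αTC1 library. Amz2 and Slc16a6 overlap by 1959 bases and Slc16a6 and Arsg by 225 bases on opposite strands. RSEM was run with its default settings, which do not use strand, so the split of reads between them is uncertain.

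**Figure D2:**
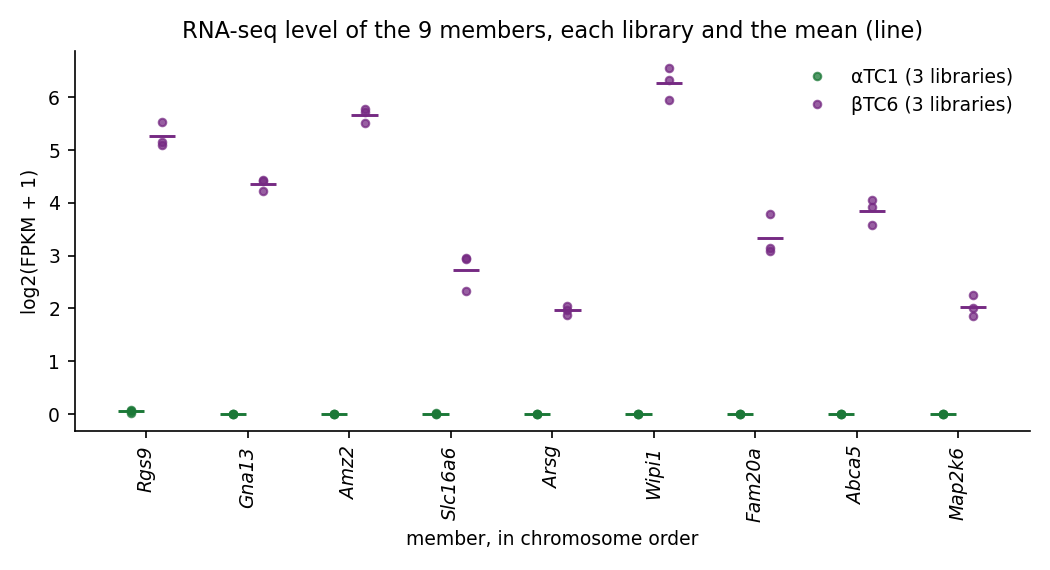
RNA-seq level of the 9 members in chromosome order, as log2(FPKM + 1). Points are single libraries (3 αTC1, 3 βTC6) and lines their means. Every βTC6 library lies above every αTC1 library for each member, with Wipi1 highest and Arsg and Map2k6 lowest.

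The order of mean FPKM in βTC6 was Wipi1 (77.6 ± 16.2, SD, n = 3), Amz2 (50.0 ± 4.81), Rgs9 (37.7 ± 6.64), Gna13 (19.5 ± 1.64), Abca5 (13.6 ± 2.37), Fam20a (9.38 ± 2.94), Slc16a6 (5.80 ± 1.56), Map2k6 (3.13 ± 0.577) and Arsg (2.92 ± 0.230). The libraries of Amz2 and Rgs9 overlapped, as did those of Abca5 and Fam20a and those of Map2k6 and Arsg. The other neighbours in this order did not overlap. Fam20a varied most between βTC6 libraries, with a coefficient of variation of 31.4%, and Arsg least, with 7.90%.

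Every member had an open promoter peak in βTC6. That of Wipi1 held 718, 371, 611, 760 and 890 reads, and that of Amz2 445, 325, 472, 589 and 753. Gna13 followed with 36.1 ± 6.19 normalized reads, Fam20a with 35.6 ± 3.51, Rgs9 with 29.9 ± 3.07, Abca5 with 29.1 ± 4.04, the shared Slc16a6 and Arsg peak with 26.2 ± 5.25, and Map2k6 with 13.9 ± 0.839 (SD, n = 5). All of these peaks stood at 1 read in the 5 αTC1 libraries. Across the 9 members promoter signal and FPKM in βTC6 had a Spearman rank correlation of 0.89, a description over genes, of which 2 share a peak. Map2k6 held the most peaks, 6 across its 126 kb, and Rgs9 and Fam20a held 3 each.

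Another 13 genes of the RNA-seq tables lie inside the stretch. Of all 22 genes, 17 had 0 counts in every αTC1 library, and the highest count of any of them in an αTC1 library was 4.05, for Rgs9. Prkar1a, a regulatory subunit of protein kinase A, had 36483, 40365 and 28663 counts in βTC6 and 0, 0 and 1 in αTC1. Abca8b had 293, 254 and 337 counts in βTC6 against 0, 1 and 2, a ratio of 287 (95% counting interval 97.7 to 1392). These 2 were the only non-members that passed the filter, and both were called higher in βTC6. Gm11696 had 94.85, 53.19 and 99.94 counts against 0, 1 and 0, but overlaps Gna13 by 824 bases on the other strand.

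The other 10 genes had little or no RNA in either line. Abca8a, 1700023C21Rik and Gm11682 had 0 counts in all 6 libraries. Abca6, Abca9, 9930022D16Rik, Gm11685, 1700012B07Rik and Kcnj16 had at most 11 counts in any library. Kcnj2, an inward rectifier potassium channel, had 20, 2 and 14 counts in βTC6, or at most 0.14 FPKM. Its promoter peak nevertheless held 314, 190, 303, 333 and 491 reads in βTC6, a mean of 43.6 ± 3.57 normalized reads, above the promoter peak of Gna13. In αTC1 the peak stood at 1 read and the RNA at 0 counts.

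**Figure D3:**
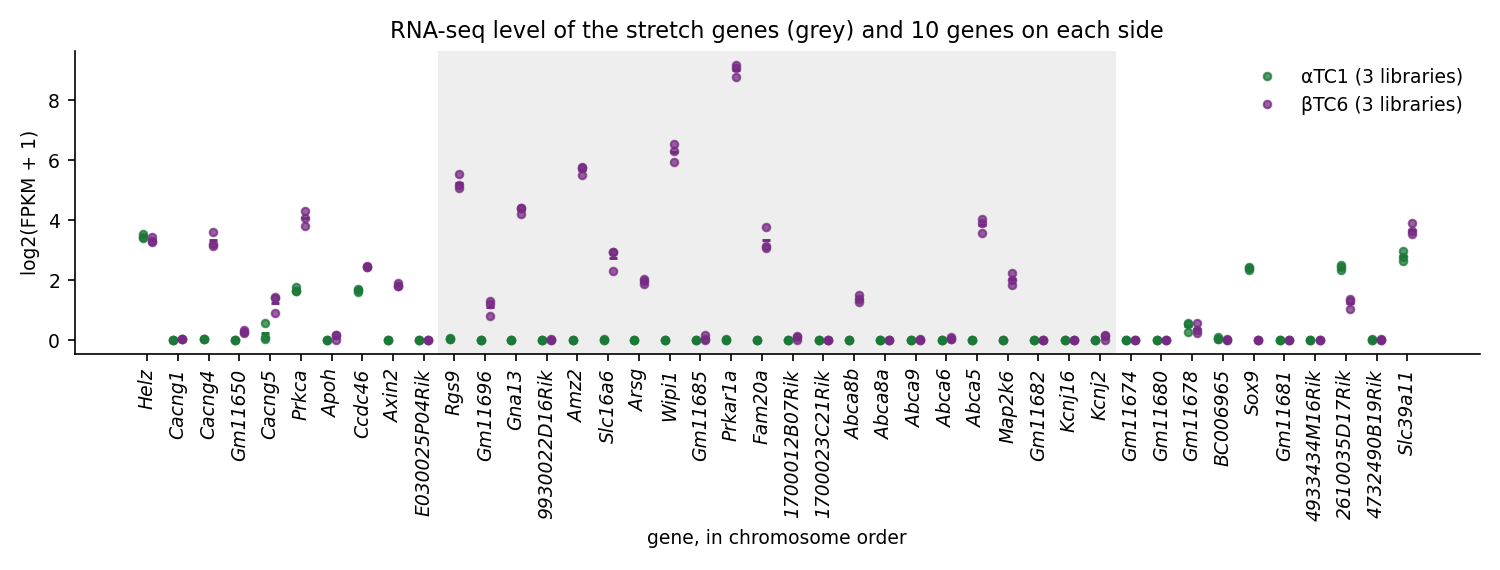
RNA-seq level, as log2(FPKM + 1), of the 22 genes of the stretch (grey area) and 10 genes on each side, in chromosome order and not to scale. Points are single libraries (3 αTC1, 3 βTC6) and lines their means. Within the grey area every αTC1 point lies at or near 0. Outside it Helz, Prkca, Ccdc46, Sox9, 2610035D17Rik and Slc39a11 have mean αTC1 levels above 1 FPKM.

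Genes around the stretch were tested, as the rule did not choose them. Of the 10 nearest on each side, 8 passed the filter and 4 were called, where 14.3% of all genes tested were. The nearest gene on the left, E030025P04Rik, and on the right, Gm11674, had 0 counts in all libraries. Axin2, 226 kb to the left, had 276, 255 and 257 counts in βTC6 and 0 in every αTC1 library, at least 84.9-fold higher. It passed the filter through βTC6 alone, and no p-value is given. Its promoter peak was 1 of those at the αTC1 floor. Ccdc46, whose promoter peak was open in both lines, had 79, 89 and 86 counts in αTC1 and 260, 250 and 254 in βTC6, and its log2 fold change of 1.55 (SE 0.148, adjusted p = 1.33e-05, edgeR) was under the fold limit.

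Further left, Prkca, a protein kinase C, was higher in βTC6 with 15.9 ± 2.78 against 2.2 ± 0.17 FPKM (SD, n = 3), a log2 fold change of 3.51 (SE 0.125, adjusted p = 3.55e-08, edgeR). Cacng4, a calcium channel subunit, was higher with 9.19 ± 1.84 against 0.0233 ± 0.00577 FPKM (log2 fold change 8.51, SE 0.239). Cacng4 also passed the filter through βTC6 alone, and no p-value is given. Helz, an RNA helicase and the tenth gene, had a log2 fold change of -0.10 (adjusted p = 0.283, edgeR). On the right the direction was the opposite for Sox9, a transcription factor of progenitor and duct cells, with 407, 433 and 425 counts in αTC1 and 0 in every βTC6 library, at least 145-fold lower in βTC6. It passed the filter through αTC1 alone, and no p-value is given. It was the only gene of the 20 called higher in αTC1.

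In the mixtures, which are libraries the rule did not use, the summed signal of the stretch rose with the share of βTC6 cells. From 90% to 10% βTC6 the sums were 796, 682, 518, 475, 378, 255, 185, 130 and 44.1 normalized reads. The order followed the mixing without exception. Pearson's r was 0.992 and Spearman's rank correlation 1.0 over the 9 mixtures, and r was 0.990 without the mixtures at 10% and 90%. Peaks selected as empty in αTC1 and open in βTC6 must rise with the βTC6 share, so these correlations are a description with no test. By the study's library quality measures the mixtures and pure replicates 4 and 5 lay together and apart from replicates 1 to 3, although no label names a batch.

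The promoter peaks of the members rose with the βTC6 share as well. For Wipi1 the reads from 90% to 10% βTC6 were 490, 424, 303, 232, 269, 187, 147, 91 and 43, and in normalized reads r was 0.998. Over the 8 promoter peaks r ranged from 0.891 for Map2k6 to 0.998 for Wipi1. Map2k6 was the least regular, at 103% and 125% of its pure βTC6 mean in the mixtures with 90% and 80% βTC6 and at 41.0% in that with 70%. It rested on 107, 127 and 34 reads there. Leaving out the mixtures at 10% and 90% its r was 0.821.

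All 54 peaks were above 1 read in the mixtures with 90% to 60% βTC6, and 53, 52, 50 and 45 were at 50%, 40%, 30% and 20%. With 10% βTC6 cells 23 of the 54 were, and all 54 together held 217 reads, the peaks at 1 read included. There the Wipi1 promoter still held 43 reads, Amz2 19 and Rgs9 12, whereas Fam20a and Map2k6 held 3 each.

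**Figure D4:**
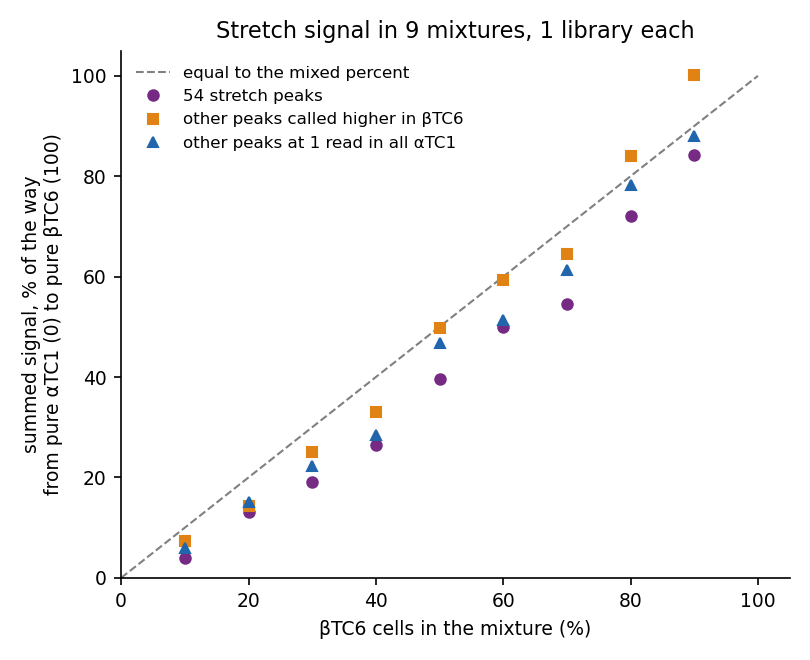
Summed ATAC-seq signal in the 9 mixtures (1 library each) against the percent of βTC6 cells mixed in. The vertical axis runs from the mean of pure αTC1 (0) to the mean of pure βTC6 (100), and the dashed line marks equality. The 54 stretch peaks (circles) lie between 3.89 and 84.2 and below the line in all 9 mixtures. The other peaks called higher in βTC6 (squares) lie above the circles in all 9 mixtures, and above the line at 90% and 80%.

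As a percent of the pure βTC6 mean the stretch signal was below the mixed percent in all 9 mixtures. It was 84.3%, 72.2%, 54.8%, 50.3%, 40.0%, 27.0%, 19.6%, 13.8% and 4.67% from 90% to 10% βTC6. Stretch minus mixed percent ranged from -15.2 to -5.33 percentage points, and the mean absolute gap was 9.24 points, against a spread of 2.0 points (SD) when each βTC6 library in turn set the level of 100%. By share of reads in peaks the gap was 12.1 points. On a scale from pure αTC1 to pure βTC6, the 8357 other peaks called higher in βTC6 stood at 100.2%, 49.8% and 7.29% in the mixtures with 90%, 50% and 10% βTC6, where the stretch stood at 84.2%, 39.6% and 3.89%. The stretch was lower in 9 of 9 mixtures, by 8.37 points on average.

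That difference depended on 1 pure library. With βTC6 replicate 5 alone as the upper end, the mean difference was 0.449 points and the stretch was lower in 4 of 9 mixtures, and with any other single βTC6 library it was lower in 9 of 9. Replicate 5 had the lowest stretch sum of the pure βTC6 libraries (94.4% of their mean) and the highest sum over the other peaks (114%). With pure replicates 4 and 5 as the ends it was lower in 9 of 9, by 5.56 points on average. Against the 95 other peaks at 1 read in all αTC1 libraries the stretch was lower by 3.90 points on average and in 9 of 9 mixtures, but in 6 of 9 with replicate 2 alone and 5 of 9 with replicate 5 alone. All 9 differences share the same pure libraries, so no test is given.

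Genes that act with the members, or belong to their families, lie elsewhere in the genome and were tested over all genes. Of 102 listed, 99 were in the tables and 78 passed the filter. Of these 10 were called higher in βTC6 and 7 higher in αTC1, where 10.2% and 4.08% of all genes tested were. Their median log2 fold change was 0.12, against 0.01 over all genes tested.

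Rgs9 acts in complexes with other proteins. Of 6 tested genes of the R7 RGS complexes 3 were higher in βTC6 and 1 in αTC1. Rgs7bp, a membrane anchor of R7 proteins, had 8.03 ± 0.452 FPKM in βTC6 against 0.220 ± 0.0624 (SD, n = 3, log2 fold change 5.24, SE 0.172). Gpr158, a receptor that binds R7 complexes, had 5.81 ± 0.837 against 0.200 ± 0.0458 (log2 fold change 4.90). Rgs11 had 11.4 ± 3.0 against 0.903 ± 0.812 (log2 fold change 3.66). Rgs7bp, Gpr158 and Rgs11 passed the filter through βTC6 alone, and no p-value is given for them. Without αTC1 replicate 3, which had 1.84 FPKM against 0.39 and 0.48 in the others, the log2 fold change of Rgs11 was 4.53. Gpr179 was higher in αTC1, with 2.46 ± 1.57 against 0.673 ± 0.410 FPKM (log2 fold change -2.31). It passed the filter through αTC1 alone, and no p-value is given. The call of Gpr179 was lost without αTC1 replicate 3 (log2 fold change -1.56) or without βTC6 replicate 2 (-1.93). Gnb5, the beta subunit that R7 proteins need, had a log2 fold change of 0.36 and was under the fold limit.

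Of 11 tested partners and relatives of Gna13 1 was called, higher in βTC6. Gna12, the close relative of Gna13, had 31.1 ± 0.405 FPKM in αTC1 against 19.0 ± 1.09 in βTC6, and its log2 fold change of -0.65 did not pass the fold limit. Of 15 tested genes of the p38 cascade 2 were higher in αTC1. Mapkapk2, a kinase downstream of p38, had 337 ± 54.5 FPKM in αTC1, as against 24.0 ± 2.26 (log2 fold change -3.75, adjusted p = 6.48e-08, edgeR), and Dusp10, a phosphatase that acts on p38, had 66.8 ± 4.67 against 14.4 ± 1.46 (log2 fold change -2.16, adjusted p = 2.06e-07, edgeR). Mapk12, a p38 kinase, was higher in βTC6 (log2 fold change 2.56, SE 0.152, adjusted p = 6.54e-07, edgeR). Mapk14, the main p38 kinase, and Map2k3, the close relative of Map2k6, had log2 fold changes of -0.66 and 0.51.

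**Figure D5:**
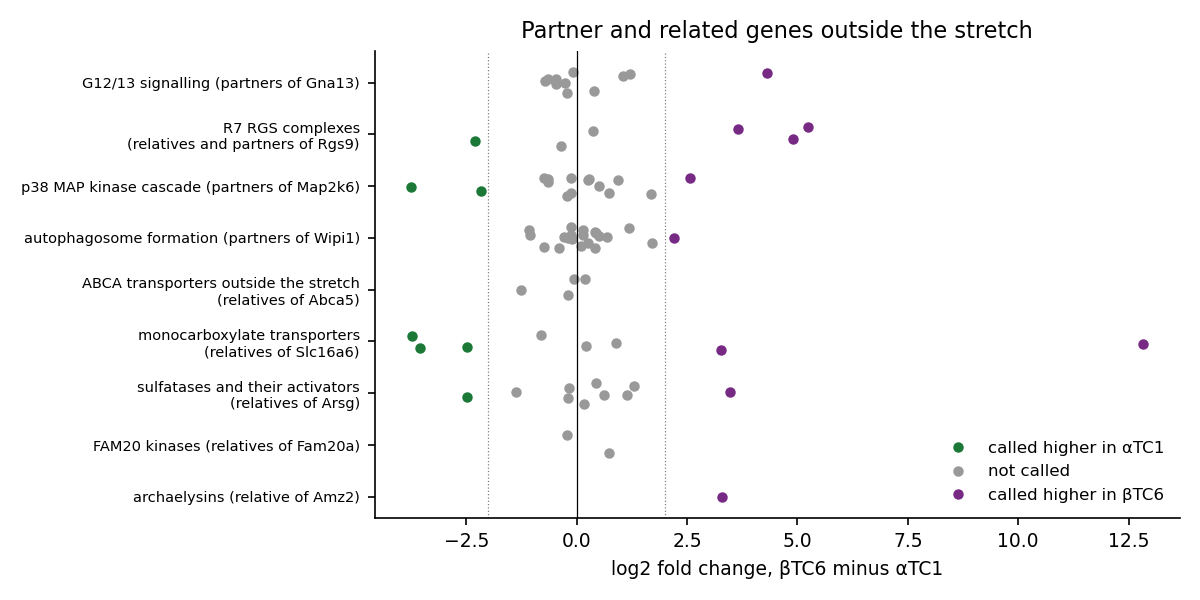
Log2 fold change (βTC6 minus αTC1) of the 78 tested partner and related genes, by list. Each point is 1 gene, dotted lines mark the fold limits, and vertical scatter within a list has no meaning. Purple points were called higher in βTC6 (10 genes) and green ones higher in αTC1 (7 genes).

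Among 21 genes of autophagosome formation only Gabarap, which is coupled to the growing membrane, was called, with 404 ± 40.7 FPKM in βTC6 against 89.5 ± 1.46 in αTC1 (SD, n = 3; log2 fold change 2.2, adjusted p = 7.58e-08, edgeR). Wipi2, the close relative of Wipi1, had 35.2 ± 1.91 against 29.0 ± 1.73 FPKM and a log2 fold change of 0.43. Relatives of Slc16a6 were called in both directions. Slc16a12, a creatine carrier, had 32.8 ± 3.68 FPKM in βTC6 and 0.00333 ± 0.00577 in αTC1. It passed the filter through βTC6 alone, and no p-value is given. With a single αTC1 count its ratio was 9996, with a 95% counting interval from 1794 to 394865. Slc16a11 was higher as well (log2 fold change 3.27). Slc16a1, the lactate and pyruvate carrier MCT1 that beta cells normally keep low, had 19.1 ± 0.656 FPKM in αTC1, as against 1.58 ± 0.332 (log2 fold change -3.54, adjusted p = 8.24e-08, edgeR). Slc16a14 and Slc16a4 were higher in αTC1 too, with log2 fold changes of -3.74 and -2.49.

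Of 10 tested sulfatases and activators Galns, a lysosomal enzyme, was higher in βTC6 (32.9 ± 2.19 against 3.05 ± 0.182 FPKM, SD, n = 3; log2 fold change 3.48, adjusted p = 7.60e-09, edgeR). Sulf2, which edits heparan sulfate outside cells, was higher in αTC1 (37.3 ± 3.28 against 6.57 ± 3.24 FPKM; log2 fold change -2.48, adjusted p = 0.000129, edgeR). Amz1, the relative of Amz2, was higher in βTC6 (5.43 ± 0.935 against 0.583 ± 0.135 FPKM, log2 fold change 3.30). It passed the filter through βTC6 alone, and no p-value is given. None of the 4 tested ABCA transporters outside the stretch and neither of the FAM20 kinases was called. Fam20c, the partner of Fam20a, had 52.1 ± 11.1 FPKM in βTC6 as against 33.4 ± 1.73, and its log2 fold change of 0.72 was under the limit.

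Genes elsewhere shared the pattern of 0 counts in all 3 αTC1 libraries, over 6 libraries in all. The 10 highest in βTC6 were Ins1, the insulin gene, with 2000.3 FPKM, Sst, the somatostatin gene, with 256, Pdx1, a beta cell transcription factor, with 111, Rps4y2 with 81.9, Glp1r, the GLP-1 receptor, with 63.0, Aard with 53.8, Kcnip1 with 49.2, Rec8 with 43.2, Rasgrf1 with 40.1 and Igfbp7 with 29.8. Wipi1 and Amz2 would stand within this list at 77.6 and 50.0 FPKM. Of the 132 such genes with FPKM of at least 1 in every βTC6 library, chromosome 11, with 991 of the 12195 genes tested, held 15, and 7 of them were members. Chromosome 17, with 621 genes tested, held 11.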

How the data were processed

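ATAC-seq was measured in 5 αTC1, 5 βTC6 and 9 mixture libraries and RNA-seq in 3 samples of each line, grouped by their labels. For ATAC-seq the authors used Trimmomatic 0.32 for trimming and BWA 0.7.9a for alignment to mm9, removed duplicates with Picard 1.95, called peaks with MACS2 2.1.0, merged them with DiffBind 2.2.5 and deposited TMM-normalized read counts (signal) per consensus peak. For RNA-seq the authors used Trim Galore 0.40, Bowtie2 2.23 and RSEM 1.2.12 on a stranded kit and deposited expected counts and FPKM values per gene. RSEM ran with default settings, which ignore strand.

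All ATAC-seq values were whole multiples of the lowest value of their library (100.0% within 0.01 of a read), which gave whole reads. Peaks were fitted with limma 3.58.1 on log2(normalized reads + 1). Expected counts were rounded and fitted with edgeR 4.0.16 (quasi-likelihood, TMM) where FPKM was 1 or more in every replicate of either line. The 92 spike-in rows, 0.436% to 0.971% of counts, were left out. A feature was called when its log2 fold change exceeded 2 in size at a false discovery rate (Benjamini-Hochberg) below 5%. Gene positions came from GENCODE, in which 67 genes had no entry. R 4.3.3, Python 3.11.15 and scipy 1.17.1 were used. In simulated data each fit called 200 of 200 features changed by a log2 of 3, and 0 unchanged ones. The simulation used a fixed dispersion for all features of a fit, changed only the more abundant ones and had no batch. It therefore does not show how the fits act at the floor or with the spread of these replicates.

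Counting intervals are at 95% and bounds use a floor of 3 counts per library. No 2 replicates agreed within sampling noise. Named genes were the members, the other genes of the stretch, called genes among the 10 flanking genes per side with the nearest ones, called partners (up to 4 per list, withheld items left out) with direct relatives, and the 10 highest genes of like pattern. The fifth called monocarboxylate transporter, the flanking genes Ccdc46 and Helz and the flanking peaks were chosen after their values were seen. The members and lists were chosen with earlier results of these data known. Alternatives were pseudocounts, filters, quantile normalization, spike-in library sizes, DESeq2 1.42.0, a replicate block, left-out replicates and edgeR on the recovered reads, the last added after seeing the data.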

Additional observations from a re-analysis of the deposited data

How the results depend on the processing

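All 9 members were called higher in βTC6 under every alternative that tested them, except that with FPKM of at least 5 only 6 were tested. Of the 54 stretch peaks, 31 were called with a mean of at least 5 normalized reads, which left only 31 to test, and 18 with a pseudocount of 5. With that pseudocount 2 flanking peaks were called instead of 13. With FPKM of at least 5, 4 partner genes were called higher in αTC1 instead of 7, 7 higher in βTC6 instead of 10, and 2 flanking genes instead of 4. Among the genes named as called besides the members, Abca8b, Gpr179, Slc16a4, Slc16a14, Slc16a11, Amz1, Axin2 and Sox9 were not tested under that filter. Without an FPKM filter 15 partners were called higher in βTC6 instead of 10, 10 higher in αTC1 instead of 7, and 6 flanking genes instead of 4. The mixture gap was 12.1 points by share of recovered reads. Leaving out 1 replicate at a time gave 52 to 53 stretch peaks, 12 to 14 flanking peaks, 9 to 9 members, 10 to 11 partners higher in βTC6, 6 to 7 higher in αTC1, 4 to 5 flanking genes and a gap of 8.64 to 9.81 points. Over all peaks 8409 were called higher in βTC6, 11237 with a pseudocount of 0.5, 1668 with 5, 5655 after quantile normalization and 13794 by edgeR on reads. Over all genes 1245 were, 2510 without the FPKM filter and 631 with FPKM of at least 5.

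The labels do not say whether equal replicate numbers pair the lines. Deviations of same-numbered libraries correlated between -0.0019 and 0.069 in ATAC-seq and between -0.0401 and 0.0246 in RNA-seq. Those of differently numbered libraries correlated between -0.0597 and 0.0269 in ATAC-seq and between -0.0487 and 0.0543 in RNA-seq. A replicate block gave 52 stretch peaks, 13 flanking peaks, 9 members, 10 and 7 partners and 4 flanking genes. Depth limits the αTC1 side, where 1 read and none cannot be told apart.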
